A study of Mus musculus with 4 samples.

Results

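The genes described here encode 9 transcription factors that direct the myeloid lineage: Spi1 (PU.1), Cebpa, Cebpb, Cebpd, Irf1, Irf5, Irf8, Klf4 and Runx1. They were taken by gene symbol, and every probe set annotated to them was kept, which gave 19 of the 45101 probe sets on the array and 9 of 18194 genes with a symbol. RAW264.7, a mouse macrophage line that was raised from a tumor induced by Abelson leukemia virus, was kept for 4 days in each of 4 conditions. NC macrophages were in normoxia without IL6, NC+IL6 macrophages in normoxia with IL6, HC macrophages in hypoxia without IL6 and HC+IL6 macrophages in hypoxia with IL6. Hypoxia was 1% oxygen, and the sources used here give no figure for normoxia. IL6 was given at 25 ng/ml in the study's polarization protocol. Each condition has 1 Affymetrix array made from total RNA of this 1 line, so every difference below compares single arrays without a replicate, carries no p-value, and is limited in precision by the number of arrays.

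PU.1, an ETS factor, opens the enhancers of macrophage genes and works with partners bound beside it, among them the C/EBP and IRF proteins. C/EBPα drives the commitment of progenitors to granulocytes and monocytes, while C/EBPβ and C/EBPδ are the members that inflammatory cytokines induce. IRF8 pairs with PU.1 at composite sites of macrophage genes, IRF1 and IRF5 act downstream of interferons and Toll-like receptors, KLF4 promotes monocyte differentiation, and RUNX1 acts early in blood formation and controls Spi1 itself. IL6 signals through STAT3, and low oxygen stabilizes the hypoxia-inducible factors (HIF), so the arrays ask how the levels of these regulators stood under each stimulus and under both.

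The deposited values are log2 signals of probe sets, each a group of short oligonucleotides designed to 1 or several transcripts of a gene. Background was judged on each array from 97 probe sets of genes that are restricted to other tissues, and their 95th percentile served as its floor, at log2 values of 6.51 in NC and 6.13 in NC+IL6, against 6.65 in HC and 6.08 in HC+IL6. The words higher and lower mark a call, which required that the brighter of the compared arrays exceed its floor and that the log2 ratio reach 1.0 in size, which is 2-fold. A signal under the floor was raised to it, and the fold is then given as at least that size. Where a gene has more than 1 probe set, the brightest stands for it and the rest are given next to it. The pooled SD of a log2 ratio between probe sets of the same gene was 0.35 for HC over NC, 0.36 for HC+IL6 over NC+IL6, 0.30 for NC+IL6 over NC and 0.33 for HC+IL6 over HC. This SD is disagreement between probe sets on the same arrays, not a replicate error, and a log2 ratio smaller than it is within that spread and shows no direction, wherever it is printed.

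All 11 macrophage markers on the list, among them Csf1r, Adgre1 (F4/80) and Cd68, were above the floor on all 4 arrays. Their summed signal ranged from 159860 to 169577. No T or NK cell marker of 7 and no mast cell marker of 5 was above it, and the summed signals of these lists were 104.1 to 168.1 and 62.0 to 163.8. Of 5 B cell markers Blnk alone passed, of 8 neutrophil markers S100a8 alone, of 5 erythroid and megakaryocyte markers Pf4 and Itga2b, and of 11 markers of fibroblasts, epithelium and endothelium Col1a2 and Epcam. The summed signals of these 4 lists lay between 181.2 and 2139. The part of any other cell type in the results was not tested. In such bulk RNA, fewer cells that express a gene and less RNA per cell cannot be told apart. Of 10 HIF targets, 8 were called higher in HC than in NC, and 5 in HC+IL6 than in NC+IL6. The shares of all genes above the floor were 3.92% and 3.44%. With IL6, 5 of the 10 were also called higher in normoxia and 3 in hypoxia, beside 3.48% and 2.36%. Calls in this list were thus not particular to hypoxia. Of 7 genes of IL6 signaling, 4 were called higher in NC+IL6 than in NC and 3 in HC+IL6 than in HC. Hypoxia gave no call among these 7 in either medium. The beta-actin probe sets, which report RNA integrity, had 3'/5' ratios of 1.54 in NC and 1.41 in NC+IL6, against 1.73 in HC and 1.62 in HC+IL6. Those of Gapdh were 0.93 in NC and 0.93 in NC+IL6, against 0.87 in HC and 0.88 in HC+IL6. Both hypoxic arrays were thus above both normoxic arrays for beta-actin and below them for Gapdh.

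All 9 factors were above the floor on all 4 arrays by their brightest probe set. Cebpa had its lowest signal in NC and its highest in HC+IL6 macrophages, Cebpd rose past the 2-fold limit with IL6 in normoxia, and the other 7 stayed within 2-fold in every comparison. In HC compared with NC, 0 of 9 were called, where 3.92% of 9575 genes above the floor were called higher and 1.07% lower. In HC+IL6 compared with NC+IL6, 1 was called higher (Cebpa) and none lower, against 3.44% and 1.5% of 10509 genes. In NC+IL6 compared with NC, 1 was called higher (Cebpd) and none lower, against 3.48% and 1.29% of 9827 genes. In HC+IL6 compared with HC, 0 of 9 were called, against 2.36% and 2.19% of 10219 genes. With so few members, counts of 0 and 1 are near these shares. The median log2 ratio of the 9 factors was 0.23, 0.01, 0.44 and 0.15 in these comparisons, in that order, and that of all genes above the floor was 0.05, 0.04, -0.05 and -0.05. The comparisons HC over NC and NC+IL6 over NC share the NC array, and the others share arrays in the same way, so their values are not independent.

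**Figure D1:**
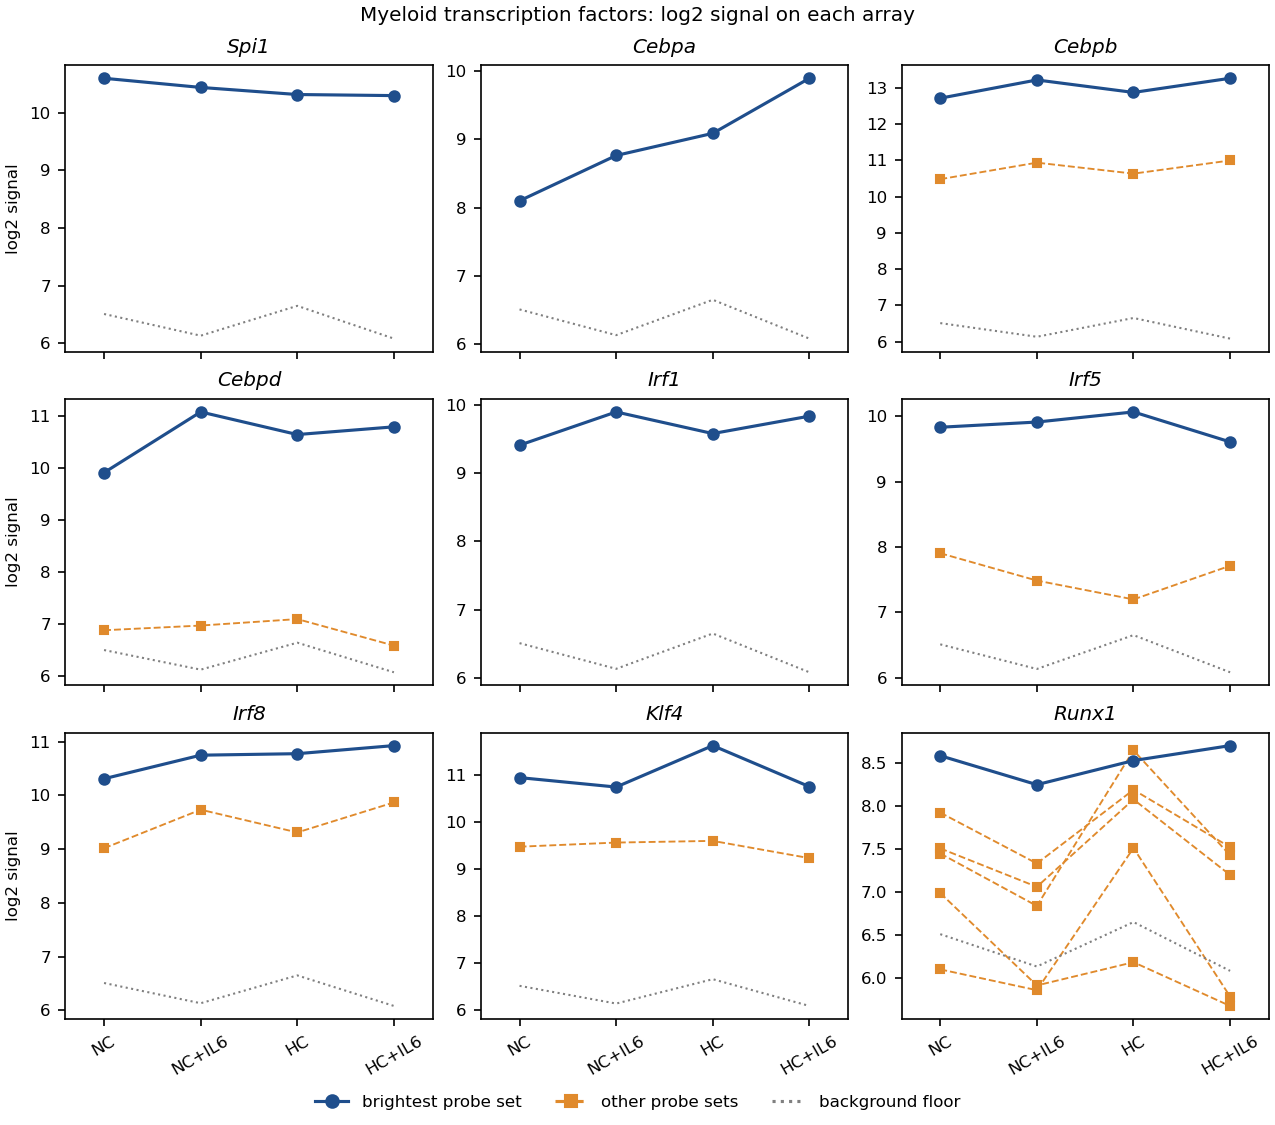
Log2 signal (y axis) of every probe set of the 9 factors on the NC, NC+IL6, HC and HC+IL6 arrays (x axis), 1 array each, with the brightest probe set of each gene in blue, the others in orange and the background floor dotted. Cebpa climbs from 8.10 in NC to 9.90 in HC+IL6, Spi1 stays between 10.30 and 10.60, and the 6 probe sets of Runx1 do not share a shape.

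Cebpa, the factor of granulocyte and monocyte commitment, showed the widest range of the 9 by their brightest probe sets. Its signal was 274.3 in NC and 434.6 in NC+IL6, against 544.2 in HC and 952.1 in HC+IL6 macrophages. The order was thus NC, NC+IL6, HC and HC+IL6, and the ends of it differed by 3.47-fold. HC+IL6 macrophages had 2.19-fold the signal of NC+IL6 macrophages, a log2 ratio of 1.13, and 2.16% of genes above the floor had a ratio as high by the same rule. HC macrophages had 1.98-fold the signal of NC macrophages, at a log2 ratio of 0.99, just under the 2-fold limit, with 4.06% of genes as high. IL6 gave 1.58-fold in normoxia and 1.75-fold in hypoxia, at log2 ratios of 0.66 and 0.81. All 4 log2 ratios were larger than the SD between probe sets. The hypoxia log2 ratio with IL6 exceeded that without it by 0.14, less than the 0.50 obtained by combining both SDs. Cebpa has 1 probe set on this array, so no other probe set bears on these values. The gene's promoter is shown because its signal differed most over the 4 arrays among the brightest probe sets. A dimmer probe set of Runx1, 1422865_at, had a range of 3.51-fold. The 250 bases before its annotated start (RefSeq, GRCm38.p6, plus strand, chr7:35119043-35119292) read, 5′ to 3′:
Cebpa: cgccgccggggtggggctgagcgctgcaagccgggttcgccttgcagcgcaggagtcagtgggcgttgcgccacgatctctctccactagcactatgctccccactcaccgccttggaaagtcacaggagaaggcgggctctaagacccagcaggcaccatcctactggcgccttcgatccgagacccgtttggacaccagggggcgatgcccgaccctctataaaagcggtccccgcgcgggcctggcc
A search on both strands for ACGTG (the core HIF binds), TTCNNNGAA (STAT), TTGCNNAA (C/EBP), the IRF motif (GAAA repeated after 2 free bases), GAGGAAG (PU.1) and TGTGGT (RUNX) found none of the 6 in this window, which is therefore printed without capitals. Of 32851 promoter windows of the same length, ACGTG occurs in 16.6%, TTCNNNGAA in 7.02%, TTGCNNAA in 9.56%, the IRF motif in 2.98%, GAGGAAG in 10.6% and TGTGGT in 14%. A match or its absence describes these letters only.

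The genes whose profile over the 4 arrays was most like that of Cebpa were Atp7a, a copper transporter, Zbtb7b, a transcription factor known from CD4 T cells, Itga6, an integrin chain, Myo1e, a myosin, and Itch, a ubiquitin ligase. Likeness is the root mean square difference of log2 signals centered on each gene's mean, over 4 arrays and 8809 genes above the floor on all of them. It was 0.03 for Atp7a, and 0.07, 0.08, 0.08 and 0.09 for the others. Atp7a had log2 signals of 9.60, 10.29, 10.66 and 11.43 in NC, NC+IL6, HC and HC+IL6. With so few arrays and so many genes, close profiles can be found for most shapes.

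Cebpd, a cytokine-induced C/EBP factor, was lowest in NC and highest in NC+IL6 macrophages by its brighter probe set. There the signal was 967.7 in NC and 2173 in NC+IL6, against 1607 in HC and 1781 in HC+IL6. IL6 gave a 2.25-fold higher signal in normoxia, a log2 ratio of 1.17 that 2.52% of genes reached, and 1.11-fold in hypoxia, a log2 ratio of 0.15 that lies within the spread between probe sets. Hypoxia gave 1.66-fold without IL6 and a log2 ratio of -0.29 with it. Each stimulus alone thus stood above NC, while the combination differed from IL6 alone by less than the spread between probe sets. The hypoxia log2 ratio under IL6 minus that without it was -1.02, against 0.50 for the combined SD, and 2.18% of 10618 genes had a difference as low. It was not tested, since each condition has 1 array. The other probe set of Cebpd, 1456605_at, was close to the floor, at 118.5, 126.1, 137.5 and 96.6, and its log2 ratio for IL6 in normoxia was 0.09. Its log2 ratio of HC+IL6 over HC was -0.51, the opposite sign to the brighter probe set. When both probe sets were averaged, the IL6 log2 ratio in normoxia fell to 0.63 and Cebpd was no longer called. The profile of Cebpd over the 4 arrays was most like those of Dner, a Notch ligand, Arap1, a GTPase-activating protein, Krtap12-1, a keratin-associated protein, Dtx3, a Deltex ubiquitin ligase, and Niban1, a stress-responsive gene, with root mean square differences of 0.03 to 0.08.

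Cebpb, the C/EBP factor of activated macrophages, was measured by 2 probe sets that moved alike. The brighter had signals of 6709 in NC and 9509 in NC+IL6, against 7489 in HC and 9820 in HC+IL6, and the other had 1427, 1957, 1586 and 2040. Both arrays with IL6 stood above both arrays without it in each probe set. IL6 gave 1.42-fold in normoxia and 1.31-fold in hypoxia, under the 2-fold limit, at log2 ratios of 0.50 and 0.39, with 0.46 and 0.36 for the other probe set. The hypoxia log2 ratios were 0.16 without IL6 and 0.05 with it, within the spread between probe sets. By the brightest probe sets of the 3 C/EBP members, the lowest signal was in NC for each. The highest was in HC+IL6 for Cebpa and Cebpb and in NC+IL6 for Cebpd. The log2 ratios of HC+IL6 over NC+IL6 were 0.05 for Cebpb and -0.29 for Cebpd, within the spread between probe sets. Their highest array is therefore not resolved. Nor is the lowest array of Cebpb, with a ratio of 0.16 for HC over NC. The other probe set of Cebpd was highest in HC and lowest in HC+IL6.

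Spi1, which encodes PU.1, varied least of the 9. Its signal was 1553 in NC and 1391 in NC+IL6, against 1277 in HC and 1260 in HC+IL6, so the highest was 1.23-fold the lowest. The log2 ratio was -0.28 for hypoxia without IL6 and -0.14 with it, and -0.16 and -0.02 for IL6 in normoxia and in hypoxia. All 4 ratios were smaller than the SD between probe sets, and the order of the levels is not resolved. Spi1 has 1 probe set on the array.

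Irf8, the partner of PU.1 in macrophage genes, had its lowest signal in NC and its highest in HC+IL6 by both probe sets. The brighter had signals of 1271 in NC and 1723 in NC+IL6, against 1757 in HC and 1950 in HC+IL6. The other had 518.4, 852.5, 635.6 and 936.2. Both thus placed NC below the other 3 arrays, but NC+IL6 and HC changed places between them. For IL6 in normoxia the log2 ratios were 0.44 and 0.72, and in hypoxia 0.15 and 0.56. For hypoxia they were 0.47 and 0.29 without IL6, and 0.18 and 0.14 with it. Of these 8 ratios, 0.15, 0.29, 0.18 and 0.14 were within the spread between probe sets, so the order of NC+IL6, HC and HC+IL6 is not resolved throughout. Nor is the order of NC and HC resolved by the dimmer probe set, with its ratio of 0.29.

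Irf1, an interferon-induced activator of antigen presentation genes, had signals of 681.8 in NC and 956.0 in NC+IL6, against 767.2 in HC and 915.9 in HC+IL6 from its 1 probe set. Both arrays with IL6 were above both without it. The ratio was 1.40-fold in normoxia and 1.19-fold in hypoxia, at log2 ratios of 0.49 and 0.26, the latter within the spread between probe sets. The hypoxia log2 ratios of 0.17 and -0.06 were also within that spread. Irf1 and Irf8 promoters are shown because IL6 acts through STAT3 and both hold the STAT motif TTCNNNGAA, which is in capitals, as is ACGTG in Irf8. These are the 250 bases before a start on the plus strand of GRCm38.p6 (RefSeq), at chr11:53769764-53770013 for Irf1 and chr8:120736108-120736357 for Irf8:
Irf1: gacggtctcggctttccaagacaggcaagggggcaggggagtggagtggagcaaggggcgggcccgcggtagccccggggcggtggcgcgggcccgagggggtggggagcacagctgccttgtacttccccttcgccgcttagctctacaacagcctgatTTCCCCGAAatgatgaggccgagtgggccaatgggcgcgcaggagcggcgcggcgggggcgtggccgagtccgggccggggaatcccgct
Irf8: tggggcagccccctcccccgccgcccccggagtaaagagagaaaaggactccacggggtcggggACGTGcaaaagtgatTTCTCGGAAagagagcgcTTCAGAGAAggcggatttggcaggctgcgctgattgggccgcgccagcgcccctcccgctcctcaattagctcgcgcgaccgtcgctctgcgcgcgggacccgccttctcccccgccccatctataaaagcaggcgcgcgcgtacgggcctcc
The match in Irf1 starts 90 bases before the start of the gene, and those in Irf8 start 171 and 153 bases before it, with ACGTG at 186. The table holds another start for each gene, whose windows have no match. Among the 10 windows of 7 members that the table holds, these were the 2 with TTCNNNGAA, and those of Cebpa, Cebpb and Irf5 held none of the 6 motifs. Cebpb, without a match, had an IL6 log2 ratio in normoxia of 0.50, beside 0.49 for Irf1 and 0.44 for Irf8. Spi1 and Cebpd were not matched in the table.

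Irf5, which drives inflammatory cytokine genes downstream of Toll-like receptors, was measured by 2 probe sets that disagreed. The brighter had signals of 911.2 in NC and 962.9 in NC+IL6, against 1072 in HC and 779.9 in HC+IL6. The other, 1449678_at, had 239.4, 179.1, 146.6 and 209.5. HC was thus the highest array by the brighter probe set and the lowest by the other. The log2 ratios had opposite signs in all 4 comparisons, 0.23 and -0.71 for hypoxia without IL6, -0.30 and 0.23 with it, 0.08 and -0.42 for IL6 in normoxia, and -0.46 and 0.51 in hypoxia. No direction is therefore given for Irf5.

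**Figure D2:**
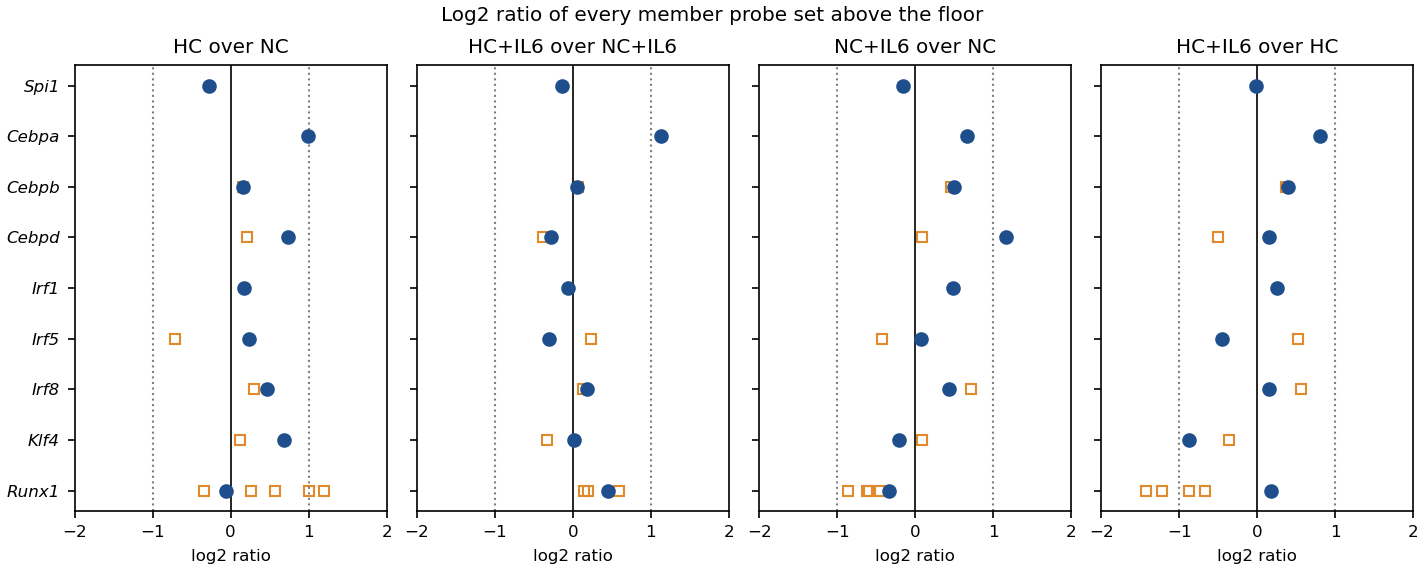
Log2 ratio (x axis) of each factor (y axis) in the 4 comparisons, with filled circles for the brightest probe set, open squares for other probe sets above the floor, signals under the floor raised to it and dotted lines at 2-fold. Of the filled circles only Cebpa with hypoxia in IL6 (1.13) and Cebpd with IL6 in normoxia (1.17) pass the lines, and the probe sets of Irf5 and Runx1 spread to both sides of 0.

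Klf4, a zinc finger factor of monocyte differentiation, was highest in HC macrophages by its brighter probe set. This probe set had signals of 1956 in NC and 1702 in NC+IL6, against 3135 in HC and 1713 in HC+IL6. HC thus stood above the other 3 arrays, and NC+IL6 and HC+IL6 were nearly equal. Hypoxia gave 1.60-fold without IL6, a log2 ratio of 0.68, and a log2 ratio of 0.01 with it. In hypoxia the signal with IL6 was 1.83-fold below that without it, at a log2 ratio of -0.87, and 3.35% of genes had a ratio as low. The other probe set, 1417395_at, had 706.8, 751.4, 770.2 and 597.3. Its log2 ratios were 0.12 for hypoxia without IL6, within the spread between probe sets, and -0.37 for IL6 in hypoxia. The highest array of this probe set is therefore not resolved. The difference of the hypoxia log2 ratios was -0.67 for the brighter and -0.45 for the other probe set. The genes closest in profile to Klf4 were Cdadc1, a cytidine deaminase family member, Pdpr, a regulator of pyruvate dehydrogenase, Clip1, a microtubule plus-end protein, Kmt2e, a chromatin protein, and Sema4a, a semaphorin, with root mean square differences of 0.03 to 0.05.

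Runx1, which encodes the RUNX factor of early blood formation, has 6 probe sets on the array, and the answer depended on which was read. The brightest, 1427650_a_at, had signals of 384.8 in NC and 304.5 in NC+IL6, against 370.0 in HC and 417.5 in HC+IL6, a range of 1.37-fold. Of the other 5, 4 were highest in HC. Probe set 1422865_at had 174.7, 114.3, 401.8 and 172.1, so that HC was 2.30-fold above NC and HC+IL6 was 2.33-fold below HC. Probe set 1422864_at had 182.0, 133.4, 270.4 and 146.8, and 1452531_at had 243.0, 161.1, 292.2 and 183.8. Both of these had their highest signal in HC and their lowest in NC+IL6, as 1422865_at did. For 1452531_at the log2 ratio of HC over NC was 0.27, within the spread between probe sets, so its highest array is not resolved. The log2 ratio of HC+IL6 over NC+IL6 was 0.14 for 1422864_at and 0.19 for 1452531_at. The lowest array of these probe sets is thus not resolved either. Probe set 1440878_at was above the floor in HC alone, at 182.6, where it was at least 2.01-fold above NC and at least 2.70-fold above HC+IL6. Probe set 1452530_a_at was above the floor in NC alone, at 126.9. Between HC and NC the log2 ratios of the 6, with signals under the floor raised to it, ran from -0.34 to 1.20, with 4 above 0. For IL6 in normoxia all 5 probe sets above the floor had ratios below 0, and in hypoxia 4 of 5 did, the exception being the brightest at 0.17. Counted as probe sets, the 19 of the 9 factors thus gave 2 calls higher in HC than in NC, where 4.3% of 17050 probe sets were called higher and 1.08% lower. In HC+IL6 compared with HC they gave 2 calls lower, where 2.21% of 18405 were called higher and 2.36% lower. Both pairs are the same 2 probe sets of Runx1. The single probe set called in HC+IL6 over NC+IL6 was that of Cebpa, beside 4.47% higher and 1.4% lower of 19036, and in NC+IL6 over NC that of Cebpd, beside 2.97% and 1.6% of 17455. Which transcript each probe set reads was not analysed here.

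The promoters of Klf4 and Runx1 are shown because the brighter probe set of Klf4 and dimmer probe sets of Runx1 were highest in HC. Their windows hold the ACGTG core, which is in capitals. All 3 lie on the minus strand of GRCm38.p6 (RefSeq), at chr4:55532476-55532725 for Klf4, chr16:92826075-92826324 for the upstream start of Runx1 and chr16:92697330-92697579 for its downstream start. They read, 5′ to 3′ along the gene:
Klf4: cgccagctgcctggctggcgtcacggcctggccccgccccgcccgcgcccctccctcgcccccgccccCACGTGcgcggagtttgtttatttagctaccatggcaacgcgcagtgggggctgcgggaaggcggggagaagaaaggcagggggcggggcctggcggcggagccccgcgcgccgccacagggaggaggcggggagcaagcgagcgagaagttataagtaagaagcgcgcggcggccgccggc
Runx1 upstream start: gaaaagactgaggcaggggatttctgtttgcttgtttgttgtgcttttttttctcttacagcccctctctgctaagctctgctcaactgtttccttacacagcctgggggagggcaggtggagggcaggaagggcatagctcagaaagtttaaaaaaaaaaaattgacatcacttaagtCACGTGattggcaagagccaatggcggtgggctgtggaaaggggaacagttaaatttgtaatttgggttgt
Runx1 downstream start: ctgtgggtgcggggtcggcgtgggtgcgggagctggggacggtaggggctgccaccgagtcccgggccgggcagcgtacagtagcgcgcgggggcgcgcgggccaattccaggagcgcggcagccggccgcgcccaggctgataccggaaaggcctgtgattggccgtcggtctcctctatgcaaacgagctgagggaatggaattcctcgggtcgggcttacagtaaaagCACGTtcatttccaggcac
In Klf4 and at the upstream start of Runx1 the motif matches on both strands as the palindrome CACGTG, 182 and 71 bases before the start. At the downstream start of Runx1 it matches on the opposite strand, 19 bases before the start. With Irf8, 4 of the 10 windows of the members hold ACGTG, beside 16.6% of all windows. These 4 include both starts of Runx1. Their GC content is 67.2% in Irf8, 74.0% in Klf4, and 45.6% and 67.6% at the upstream and downstream starts of Runx1. The median over all windows is 52.4%, and the share of 16.6% was not matched for GC content. The hypoxia log2 ratio without IL6 was 0.68 for Klf4, -0.06 for the brightest Runx1 probe set and 0.47 for Irf8, and it was 0.99 for Cebpa, whose window has no match.

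**Figure D3:**
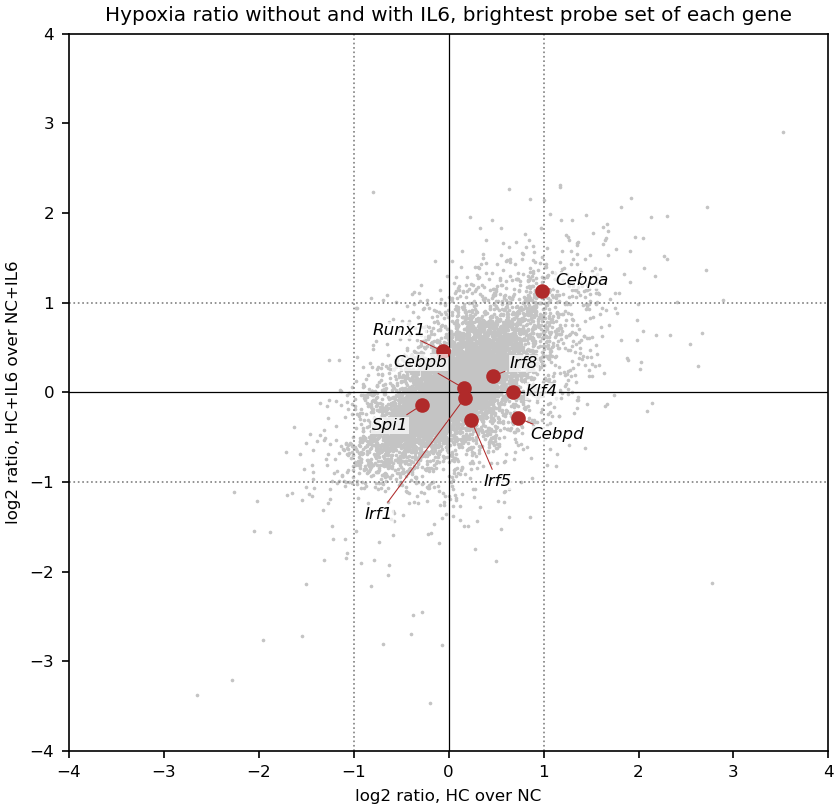
Log2 ratio of HC over NC (x axis) against that of HC+IL6 over NC+IL6 (y axis), comparisons that share no array, for all genes above the floor in grey and the 9 factors named, signals under the floor raised to it, with dotted lines at 2-fold. Cebpa lies at 0.99 and 1.13, Cebpd at 0.73 and -0.29, Klf4 at 0.68 and 0.01, and Spi1 near the center.

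Relatives of these factors were counted from lists by DNA-binding family, with partner proteins in the IRF and RUNX lists. Of 11 further ETS factors above the floor, none was called with hypoxia in either medium, and Ets2 alone was called with IL6, 2.54-fold higher in NC+IL6 than in NC. Over all genes, hypoxia gave 3.92% higher and 1.07% lower without IL6, and 3.44% and 1.5% with it. IL6 gave 3.48% higher and 1.29% lower in normoxia, and 2.36% and 2.19% in hypoxia. With 11 factors, counts of 0 and 1 are near these shares. Among the C/EBP-related factors the calls higher were with IL6. Ddit3 (CHOP), the C/EBP relative of the stress response, was 6.10-fold higher with IL6 in normoxia and 3.30-fold in hypoxia, and Nfil3 was 4.15-fold and 3.65-fold higher. They were 2 of 3 tested in normoxia and 2 of 4 in hypoxia, beside 3.48% and 2.36% of all genes called higher. Under IL6, hypoxia left Ddit3 2.58-fold lower, as 1 of 4 tested, beside 1.5% of all genes.

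The list of other IRF genes also holds Irf2bp1 and Irf2bp2, whose proteins bind IRF2 and are not IRF factors. Of the 6 genes tested on this list, Irf7, the interferon-inducible amplifier of type I interferon, was the 1 called. Its log2 signal was 8.83 in NC and 10.86 in NC+IL6, against 7.14 in HC and 9.72 in HC+IL6. It was thus lower in hypoxia, by 3.24-fold without IL6 and 2.21-fold with it, and higher with IL6, by 4.07-fold in normoxia and 5.99-fold in hypoxia. Over all genes 1.07% and 1.5% were called lower in those hypoxia comparisons, and 3.48% and 2.36% higher in those of IL6. Irf9, the IRF of the interferon-activated complex with STAT proteins, had log2 ratios of the same signs, -0.86 and -0.90 for hypoxia and 0.75 and 0.72 for IL6, and was not called. By their brightest probe sets Irf1, Irf5 and Irf8 had log2 ratios between -0.46 and 0.49.

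In the KLF and SP family 2 of 11 were called higher in HC than in NC, Klf2 at 2.94-fold and Klf3 at 2.40-fold, beside 3.92% of all genes. Of the 2 other tested probe sets of Klf3, 1 shared that sign. By the deposited signals 10 of 11 log2 ratios were above 0, as were 53.8% of those of all genes. In HC+IL6 compared with NC+IL6, Klf9 and Klf10 were called higher at 2.10-fold and 2.23-fold, beside 3.44% of all genes. Of the 5 other probe sets of Klf9, 4 shared that sign. In this comparison 11 of 11 ratios were above 0, against 54.3% of all genes. Those of Klf6 (0.10), Klf7 (0.11), Klf16 (0.20), Klf3 (0.24) and Klf13 (0.28) were within the spread between probe sets and show no direction. In HC over NC the same holds for Sp1 (0.21) and Sp3 (0.29). The family medians were 0.69 and 0.43, beside 0.05 and 0.04 for all genes. After quantile or loess normalization 10 and 11 of the ratios were again above 0, with medians from 0.64 to 0.67 and from 0.27 to 0.33. Klf2, which restrains macrophage activation, was also 3.28-fold higher in NC+IL6 than in NC, and Klf7 was 2.66-fold higher. By its brighter probe set Klf4 thus went with the family in hypoxia without IL6, at 0.68, and stood at 0.01 with IL6. Its other probe set had 0.12 and -0.33, both within the spread between probe sets. The RUNX partner Cbfb had log2 ratios of -0.01 and 0.04 for hypoxia and -0.32 and -0.28 for IL6, and Runx3 had 0.67, -0.33, 0.71 and -0.29 in the same order, with none called.

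Among 28 other transcription factors of myeloid cells on the array, Egr2 and Bhlhe40 were called higher in HC than in NC, at 5.84-fold and 3.16-fold, and Rxra was 2.27-fold lower. Egr2, an early growth response factor, and Bhlhe40, a basic helix-loop-helix repressor, were also higher in NC+IL6 than in NC, at 2.76-fold and 2.43-fold. Both comparisons share the NC array. With IL6 present, hypoxia left Maf at least 3.91-fold and Id2 2.51-fold higher. Stat3, which carries the IL6 signal, was 2.12-fold higher with IL6 in normoxia and 2.72-fold in hypoxia, and in hypoxia Maf was at least 2.73-fold and Tfec, a relative of Mitf, 2.11-fold higher. The counts were 2 higher and 1 lower of 18, 2 and 0 of 22, 3 and 0 of 20, and 3 and 0 of 21, in the order HC over NC, HC+IL6 over NC+IL6, NC+IL6 over NC and HC+IL6 over HC, where 3.92%, 3.44%, 3.48% and 2.36% of all genes were called higher and 1.07%, 1.5%, 1.29% and 2.19% lower.

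Genes that PU.1 is known to bind and activate had median log2 ratios near 0, at 0.08, 0.11, 0.00 and 0.08 in that order. Those called were surface receptors. Itgam (CD11b), an integrin chain, was higher with hypoxia, by 3.13-fold without IL6 and by 3.24-fold with it. Fcgr3, an Fc receptor, was 3.48-fold and 2.16-fold higher in those comparisons. With IL6 in normoxia Fcgr1, Fcgr2b, Fcgr3 and the scavenger receptor Msr1 were 3.31-fold, 4.36-fold, 2.46-fold and 2.96-fold higher. In hypoxia Fcgr1, Fcgr2b, Msr1 and Itgam were 2.37-fold, 3.61-fold, 3.17-fold and 2.06-fold higher with IL6. That is 2, 2, 4 and 4 called higher of 22 or 23 tested and 0 lower, beside 3.92%, 3.44%, 3.48% and 2.36% of all genes called higher. The Spi1 signal differed by at most 1.23-fold. PU.1 protein and its binding were not measured, nor was which factor acted on these genes.

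Of the targets of the C/EBP factors, 5 of 8 tested were called higher with IL6 in normoxia and none lower, beside 3.48% and 1.29% of all genes, with a median log2 ratio of 1.55, beside -0.05 for all genes. They were the cyclooxygenase gene Ptgs2 (6.82-fold), the acute-phase gene Saa3 (at least 5.63-fold), the signaling inhibitor Socs3 (4.69-fold), Tnf (3.31-fold) and the chemokine gene Ccl3 (2.57-fold). In hypoxia 4 of 9 were called higher, beside 2.36% of all genes, Ptgs2 at 5.97-fold, Saa3 at least 5.11-fold, Socs3 at 4.90-fold and Ccl3 at 2.63-fold. For hypoxia, Ptgs2 was 2.58-fold higher without IL6 and 2.25-fold with it, Dusp1, a phosphatase of MAP kinases, 2.18-fold without it, and the arginase gene Arg1 at least 2.21-fold with it, which made 2 of 7 and 2 of 10, beside 3.92% and 3.44% of all genes. Arg1 was not called after quantile or loess normalization. Most of these genes also answer to STAT3 or NF-κB, and which factor acted on them was not measured.

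Targets of the IRF factors were called mainly in the comparisons of hypoxia under IL6 and of IL6 in normoxia, which share the NC+IL6 array. In the former, 5 of 19 were called lower and none higher, beside 1.5% and 3.44% of all genes. Usp18, an interferon-induced protease, was 9.23-fold lower, Ifit1 7.04-fold, the chemokine gene Cxcl10 7.01-fold, Ifit3 at least 6.68-fold and the proteasome gene Psmb10 2.02-fold, the last not called after quantile or loess normalization. In NC+IL6 compared with NC, 7 of 18 were called higher and none lower, beside 3.48% and 1.29% of all genes, the 6 with the greatest ratio being Ifit1 (5.35-fold), Cxcl10 (5.06-fold), Ifit3 (at least 4.96-fold), Usp18 (3.84-fold), the peptide transporter Tap1 (3.04-fold) and Psmb9 (2.08-fold). Between HC and NC 1 of 15 was called, Usp18 at 4.85-fold lower, beside 1.07% of all genes. Between HC+IL6 and HC 2 of 16 were called higher, Tap1 at 3.97-fold and Usp18 at 2.02-fold, beside 2.36% of all genes. Irf1, which acts on Tap1 and Psmb9, had its own IL6 ratios of 1.40-fold and 1.19-fold beside these. Which factor acted on these targets was not measured.

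**Figure D4:**
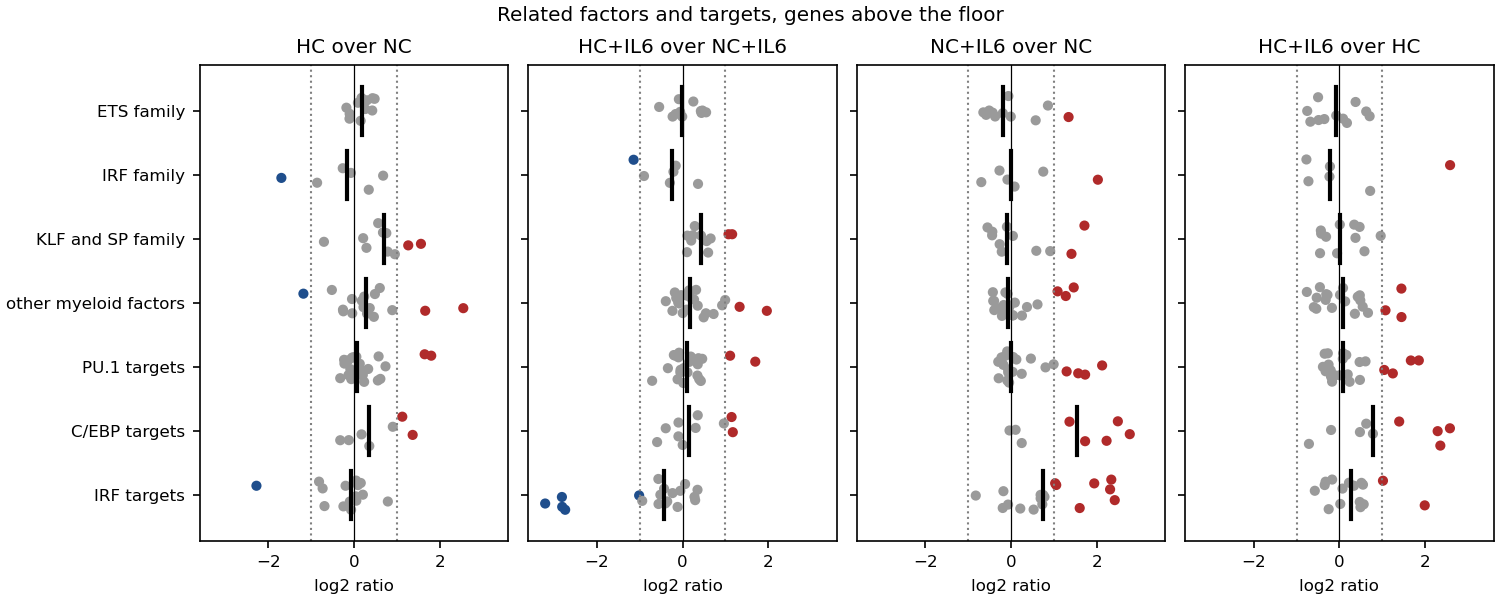
Log2 ratio (x axis) of genes above the floor in the 4 comparisons, by list (y axis), with signals under the floor raised to it. The lists are the ETS, IRF, and KLF and SP families, other myeloid factors, and targets of PU.1, C/EBP and IRF. The IRF list includes the IRF2-binding proteins Irf2bp1 and Irf2bp2. The C/EBP-related and RUNX families are not drawn. Points are red where called higher, blue where called lower and grey where not called, and black bars mark the list medians. The C/EBP targets stand to the right with IL6 in normoxia (median 1.55), the IRF targets to the left with hypoxia in IL6 (median -0.43), and the PU.1 targets around 0 in all 4.

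Normalization between the arrays did not change which of the 9 factors were called, but it changed the share of calls in each direction over all genes. Between HC and NC 375 genes were called higher and 102 lower as deposited, 257 and 185 after quantile normalization, and 272 and 167 after cyclic loess normalization. Between HC+IL6 and NC+IL6 the counts were 361 and 158 as deposited, 217 and 256 after quantile normalization, and 227 and 263 after loess. Over the whole array the median log2 signal stood at 5.64 in NC and 5.55 in NC+IL6, against 5.90 in HC and 5.86 in HC+IL6.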

How the data were processed

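Total RNA of RAW264.7 macrophages from 4 conditions was measured on 1 Affymetrix mouse array each. The deposited values are log2 signals that the authors made with MAS5, per the submitters' processing notes, and scaled per array; the 2% trimmed mean of the signals was 500.0 on each, with no MAS5 version given in the sources used here. The scaling assumes a similar total signal on each array. Of 45101 probe sets, 34958 carried 1 gene symbol in the platform annotation, 932 several and 9211 were not listed, and 34754 matched RefSeq (GRCm38.p6). Log2 ratios, floors and list counts were computed in Python 3.11.15 with numpy 2.4.6 and pandas 2.3.3, and quantile and cyclic loess normalization in limma 3.58.1 (R 4.3.3). The floor used 97 probe sets of 68 genes. With 1 array per condition no test was run. Named genes were the 9 members with all probe sets, up to 6 called genes per list and comparison, and the 5 genes closest in profile to each of the 3 members of widest range. The range was that of the brightest probe set. The members, the lists and these rules were chosen with earlier results of these data known. The calls were checked on simulated data. Alternatives were quantile and loess normalization, no floor, a floor at 2 times its signal, a mean over probe sets and an added background median.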

Additional observations from a re-analysis of the deposited data

Results flagged for a closer look

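For 4 factors the log2 ratio of 1 stimulus had opposite signs without and with the other stimulus. Each condition has 1 array, so these differences were not tested. For Cebpd the hypoxia log2 ratio with IL6 minus that without was -1.02, from 0.73 without IL6 to -0.29 with it, the latter within the spread between probe sets. For Irf1 it was -0.23, from 0.17 to -0.06, both within the spread between probe sets. For Irf5 it was -0.54 by the brighter probe set, from 0.23 to -0.30, and the difference of the IL6 log2 ratios in hypoxia and in normoxia is the same -0.54, from 0.08 to -0.46; of these 4 ratios -0.46 alone exceeds the spread between probe sets. The other probe set of Irf5 gave 0.93, the opposite sign. For Runx1 it was 0.51 by the brightest probe set, from -0.06 to 0.46 for hypoxia and, equally, from -0.34 to 0.17 for IL6, where -0.06 and 0.17 are within that spread. The combined SD between probe sets for such a difference is 0.50.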

How the results depend on the processing

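Averaging the probe sets of a gene changed 1 count of called members, from 1 to 0 in NC+IL6 compared with NC, where Cebpd fell to 0.63. The other counts of called members were the same under all 6 alternatives. Of 252 recomputed log2 ratios and differences of the 9 factors, 245 moved by less than the SD between probe sets, 7 moved by more, all with the mean over probe sets, and 0 called values changed sign. Values that were not called changed sign 11 times. With the mean over probe sets Irf5 went to -0.24 in HC over NC, -0.17 in NC+IL6 over NC and 0.03 in HC+IL6 over HC, Runx1 to 0.43 in HC over NC and -0.81 in HC+IL6 over HC, Klf4 to -0.16 in HC+IL6 over NC+IL6, and Cebpd to -0.18 in HC+IL6 over HC. The difference of the hypoxia log2 ratios went to 0.20 for Irf5 and -0.26 for Runx1. Spi1 in HC+IL6 over HC went to 0.03 with quantile and 0.01 with loess normalization. Without a floor, 4958 genes in place of 477 were called between HC and NC, 4722 in place of 519 between HC+IL6 and NC+IL6, 4873 in place of 469 between NC+IL6 and NC, and 4785 in place of 465 between HC+IL6 and HC. In NC+IL6 compared with NC they were 2418 higher and 2455 lower without a floor, and 342 and 127 with it. No paired analysis was possible because each condition has 1 array, so no replicates could be matched across conditions.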

Other observations

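Few genes that mark other blood cells were above the floor, and 3 of them, chosen after their values were seen, differed between the conditions. Blnk, an adaptor of the B cell receptor that macrophages also express, had log2 signals of 10.49 in NC and 9.75 in NC+IL6, against 10.96 in HC and 9.16 in HC+IL6. Its log2 ratios with IL6 were -0.73 in normoxia, which is not a call, and -1.80 in hypoxia, where it was called lower. Pf4, a platelet chemokine, had 6.69, 7.83, 7.47 and 8.52 and was called higher with IL6 in both. S100a8, a calcium-binding protein of neutrophils and monocytes, had 5.88, 6.52, 6.59 and 7.86, and was above the floor in NC+IL6 and HC+IL6. Its signal in HC exceeded that in NC+IL6 but lay under the HC floor of 6.65, where the NC+IL6 floor was 6.13. It was called higher in HC+IL6, at 2.52-fold over NC+IL6 and at least 2.31-fold over HC. IL6 in normoxia gave no call.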
